A study of Mus musculus with 25 samples.

Results

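DNA methylation was followed at 10 genes of adipocyte identity and of heat-producing fat, Cebpa, Cebpb, Cebpd, Pck1, Cpt1b, Prdm16, Ppargc1a, Ebf2, Zic1 and Dio2, in mouse mammary fat pads. Every CpG site that the deposited table assigns to one of these gene symbols, and that had an average coverage of at least 10 reads, was taken. This gave 679 CpGs in 9 of the 10 genes, of 260376 CpGs with that coverage in the whole table, and no CpG carried the symbol Dio2. Prdm16, a gene of over 300 kb, held 533 of the 679. Ebf2 had 52 CpGs, Cpt1b 36, Zic1 24, Pck1 13, Cebpa 10, Cebpb 8, Cebpd 2 and Ppargc1a 1. By the authors' annotation 593 of the CpGs lay in gene bodies, 72 in a 1st exon, 7 in a 5'UTR and 7 in a 3'UTR, and 540 lay in the open sea, outside CpG islands and their flanks.

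The data are reduced representation bisulfite sequencing (RRBS) of genomic DNA, which reads short MspI fragments and so samples CpG-rich parts of the genome. Wild-type C57BL/6N mice were given the control diet D12450J (Control, n = 5) or a 60% high-fat diet, D12492, until obese. Obese mice then stayed obese (Obese) or lost weight in 1 of 4 ways. LFD mice (n = 3) ate low-fat food without restriction, and LFCR mice (n = 4) ate low-fat food with calories cut by 30%. In MCR (n = 3) calories were cut by 30% on Mediterranean-style food, and in ICR (n = 5) the restriction was intermittent. All mice, Control included, received E0771 mammary cancer cells in a 4th mammary fat pad 25 weeks after the start of the diets, and DNA was taken at endpoint from the uninjected fat pad of the other side. The labels also carry the cell line E0771 and the cell type mouse mammary cancer for this uninjected tissue, and they give no sex and no batch. Each library is labelled with its own mouse number. Obese libraries 27, 28 and 40 and LFD library 46 were left out by the rule that chose the members. This leaves Obese mouse 22 as a single animal, which was described and not tested.

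White and heat-producing adipocytes share a differentiation cascade. The transcription factors C/EBP beta and C/EBP delta act early and switch on C/EBP alpha, which with PPAR gamma sets the mature fat cell programme. PRDM16, EBF2 and the coactivator encoded by Ppargc1a turn on thermogenic and mitochondrial genes, Zic1 is a marker of classical brown fat, and Dio2 encodes the enzyme that activates thyroid hormone inside brown fat cells. Cpt1b and Pck1 are metabolic genes. Cpt1b encodes the muscle and brown fat form of the transferase that loads fatty acids for mitochondrial oxidation. Pck1 encodes an enzyme of the pathway that makes glycerol backbones for triglyceride storage. Methylation at CpG-island starts is usually absent in genes that can be expressed, while the bodies of genes are usually methylated.

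To show CG-rich and CG-poor gene starts, the 250 bases before the start of 3 members are printed from RefSeq (build GRCm38.p6, the same assembly as mm10), 5' to 3' on the gene's strand, with each CG in capitals. Most of the measured CpGs lie elsewhere, in gene bodies. Promoter windows of 300 bases were matched for 7 of the 10 genes. Cebpb and Zic1 stand for the CG-rich starts and Pck1 for a CG-poor start. The Cebpb window is chr2:167688665-167688914 on the plus strand, the Zic1 window chr9:91365769-91366018 on the minus strand, and the Pck1 window chr2:173152823-173153072 on the plus strand, followed by 30 bases inside the transcript, chr2:173153093-173153122.
Cebpb: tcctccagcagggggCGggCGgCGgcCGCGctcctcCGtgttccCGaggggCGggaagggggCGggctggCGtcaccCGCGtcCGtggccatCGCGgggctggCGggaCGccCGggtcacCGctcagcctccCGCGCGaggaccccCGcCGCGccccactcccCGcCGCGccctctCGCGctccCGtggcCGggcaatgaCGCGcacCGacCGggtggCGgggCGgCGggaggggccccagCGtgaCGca
Zic1: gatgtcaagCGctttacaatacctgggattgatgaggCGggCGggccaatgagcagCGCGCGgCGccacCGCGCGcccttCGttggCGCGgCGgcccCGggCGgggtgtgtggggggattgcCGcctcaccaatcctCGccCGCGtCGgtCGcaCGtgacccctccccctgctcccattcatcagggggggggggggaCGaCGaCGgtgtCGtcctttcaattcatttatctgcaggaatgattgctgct
Pck1: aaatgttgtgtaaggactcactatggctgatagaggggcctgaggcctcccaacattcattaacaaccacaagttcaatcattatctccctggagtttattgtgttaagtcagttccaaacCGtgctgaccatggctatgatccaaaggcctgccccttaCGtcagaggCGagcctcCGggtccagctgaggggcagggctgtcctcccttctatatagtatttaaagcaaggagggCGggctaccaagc
Pck1 inside the transcript: gaacacaccctCGgtcaacaggggaaatcc

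The printed Cebpb stretch holds 41 CG, that of Zic1 27 and that of Pck1 5. Over the whole 300-base window, which reaches 50 bases past the start, CG occurs 50 times in Cebpb, 31 times in Zic1, 29 times in Cebpa, 24 times in Prdm16, 6 times in Pck1, 5 times in Ppargc1a and 3 times in Dio2. The median over all 32851 RefSeq promoter windows is 7, and 94.6% of them hold at least 1 CG (letters CG, which read the same on both strands). CCGG, the MspI site, which itself contains CG, is in 52.8% of all windows. RRBS measured few CpGs inside these windows: 3 at Pck1, 4 at Zic1 and none at the other 5 genes. The last CG in the printed Pck1 stretch is position 173153060, 13 bases before the start. The CG in capitals in the 30 bases is position 173153104, 31 bases after it, and the final base is the C of the CpG at 173153122. The last CG in the printed Zic1 stretch is position 91365807. In Control mice the Pck1 CpGs were highly methylated, with means of 85.3%, 86.4% and 90.1%. The 4 Zic1 CpGs had means of 4.76% to 8.76%.

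A methylation level is the share of reads that are methylated at a CpG, here in percent. Neighbouring CpGs of a gene no more than 200 bp apart were joined into segments of at least 3 CpGs, and the level of each mouse over a segment was compared between groups with limma, Benjamini-Hochberg adjusted over all 18896 segments of the genome that could be tested. A segment or CpG is called where the adjusted p is under 0.05, and differences are in percentage points. Words such as loss, gain, moved and went from mean differences between groups of separate mice sampled at endpoint, not changes followed over time. The members formed 88 segments, of which 68 could be tested. Of the 20 others, 19 had no level in MCR mouse 95. DNA of a whole fat pad was sequenced, so a change in the mix of cells and a change within cells cannot be told apart.

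The whole genome moved in the same comparisons, which sets the background for every count. Mean methylation over the CpGs measured in every library was 54.1% to 58.3% in Control, 50.8% to 54.8% in ICR and 46.5% to 47.2% in MCR. The LFD and LFCR groups were split: LFD mouse 42 and LFCR mice 63 and 67 had 48.3%, 46.5% and 47.1%, while the other LFD and LFCR mice had 52.1% to 54.6%. The 4 libraries left out had 48.8% to 49.2% at CpGs where the other libraries had 1.10% to 1.99%. The share of CpGs with a value ran from 48.3% to 99.5% over the 21 libraries. Read depth per library is unknown, since the table gives coverage only as an average over 21 libraries.

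In MCR against Control, 44 of the 68 segments were lower and 4 higher, 64.7% and 5.88%, beside 51.5% lower and 6.16% higher of all segments (57.7% in either direction). The median difference was -12.1 points for the members and -7.73 for all segments. In LFCR against Control, 30 segments were lower and 2 higher, 44.1% and 2.94%, beside 28.8% and 3.31% of all segments (32.1% together), with medians of -8.62 and -4.75. Over the 68 segments, 54 of them in Prdm16, the members lay above the genome in the share of lower segments. They lay near it in the share of higher ones. In MCR the excess was in Prdm16, with 38 of 54 segments lower (70.4%). The other members had 14 tested segments, of which 6 were lower and 0 higher in MCR by limma, with a median of -6.32. That is a smaller share of lower segments than the 51.5% of the genome. In LFCR the same 14 had 6 lower and 0 higher, and Prdm16 had 24 of 54 lower (44.4%). Both shares of lower segments were larger than the 28.8% of the genome.

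No member segment was called in LFD or in ICR against Control by limma. Of all segments, 0.0265% were called lower and 0.0212% higher in LFD (0.0476% together), and 0% in ICR. At an unadjusted p under 0.05, 33 of the 68 members (48.5%) passed in LFD, beside 26.7% of all segments, and the median difference was -7.82, beside -3.38. Without LFD mouse 47, 12 member segments were lower and 1 higher in LFD (19.1% called), beside 9% of all segments called in the same fit. Without LFCR mouse 72, 3 were lower (4.41%), beside 1.55%. In ICR, 24 of the 68 (35.3%) had an unadjusted p under 0.05, beside 16.8% of all segments, with a median of -5.19, beside -2.28. By range, all LFD mice lay below every Control mouse in 14 member segments and above in 2, beside 15.1% and 2.44% of all segments. For ICR this held in 5 and 0, beside 6.1% and 0.857%, and for LFCR in 16 and 0, beside 15.1% and 1.57%. Single mice differed widely within a diet: LFD mouse 42 lay below the Control range in 54 of 68 segments, mouse 47 in 18 and mouse 48 in 37, beside 59%, 23.9% and 39% of all segments. In ICR, mouse 103 lay below it in 47 and mouse 112 in 18, beside 49.9% and 20.7%. All these comparisons share the Control mice, so their values stand side by side and their likeness is not a result.

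Counts of CpGs gave the same order of diets. Of 498 member CpGs tested, 236 were lower and 49 higher in MCR, beside 32.8% and 4.54% of all 129217 CpGs tested. In LFCR, 106 were lower and 21 higher, beside 12.1% and 1.48%. In both diets the members lay above all CpGs in both shares, and every higher member CpG lay in Prdm16. None was called in LFD or ICR by limma, beside 0% of all CpGs in both, and 178 and 132 member CpGs (35.7% and 26.5%) had an unadjusted p under 0.05, beside 18.9% and 12.8% of all CpGs.

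The number of LFCR calls moved with single mice, in the members as in the whole genome. Without LFCR mouse 63, or without LFCR mouse 67, 0 member segments and 0 member CpGs were called by limma, beside 0.0428% and 0.0637% of all segments and 0.00942% and 0.0179% of all CpGs. At an unadjusted p under 0.05 there were then 34 member segments in both cases, with 172 CpGs without mouse 63 and 199 without mouse 67. The shares of all segments and CpGs at that threshold in these fits are not given here. With all mice, 61.8% of member segments passed it, beside 46.1% of all segments. For CpGs these shares were 49.8% and 31.8%. The differences themselves kept their direction: at the 12 named segments called in LFCR, each without mouse 63 and without mouse 67, they were 50.9% to 104% of their size with all mice, with adjusted p from 0.0558 to 0.204.

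Leaving out a Control mouse also lowered the LFCR count, with a like fall in the genome. Without Control mouse 2, 11 segments were lower and 1 higher (18.2% called), beside 16.4% of all segments, and 12 CpGs were lower and 1 higher (2.64%), beside 1.51% of all CpGs. Without Control mouse 1, 18 segments were lower and 2 higher (29.4%, beside 24% of all segments), with 48 CpGs lower and 5 higher (10.6%, beside 6.25%). Without Control mouse 13 the counts were 18 and 2 (30.8%, beside 24.9%), with 63 CpGs lower and 7 higher (14.4%, beside 8.11%). Without Control mouse 5, 68 CpGs were lower and 14 higher (16.9%, beside 11.1%), and without LFCR mouse 72, 175 were lower and 38 higher (42.8%, beside 25.7%). Of the 68 segments, mouse 63 lay below the lowest Control mouse in 59, mouse 67 in 53, mouse 69 in 36 and mouse 72 in 17, beside 64.2%, 62.2%, 41.5% and 23.5% of all segments. The MCR counts of segments stayed between 41 and 49 when any single mouse of the fit was left out.

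The genome-wide shift of each library was then removed by centring every library on its own mean deviation among CpGs of like level, in 10 bins. After centring, 18 member segments were lower and 6 higher in MCR, beside 17.4% and 14% of all segments, and the median difference of the members went from -12.1 to -1.92 points. In LFCR, 9 were lower and 5 higher, beside 7.33% and 5.9%. None was called in LFD or ICR by limma, beside 0.0423% and 0.00529% of all segments, all lower. At an unadjusted p under 0.05, 23 and 16 members passed. The share of all segments at that threshold after centring is not given here. For all segments the centred medians were -0.156 in MCR and -0.0368 in LFCR. With CpGs as units, centring left 93 lower and 71 higher in MCR (32.9% called, beside 19.8% of all CpGs). In LFCR it left 18 lower and 21 higher (7.83%, beside 4.5%). All 3 Cpt1b segments were still called lower in both diets and 1 of 3 Pck1 segments in MCR, with smaller differences that are given for each gene, and the Ebf2 segment was not called.

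**Figure D1:**
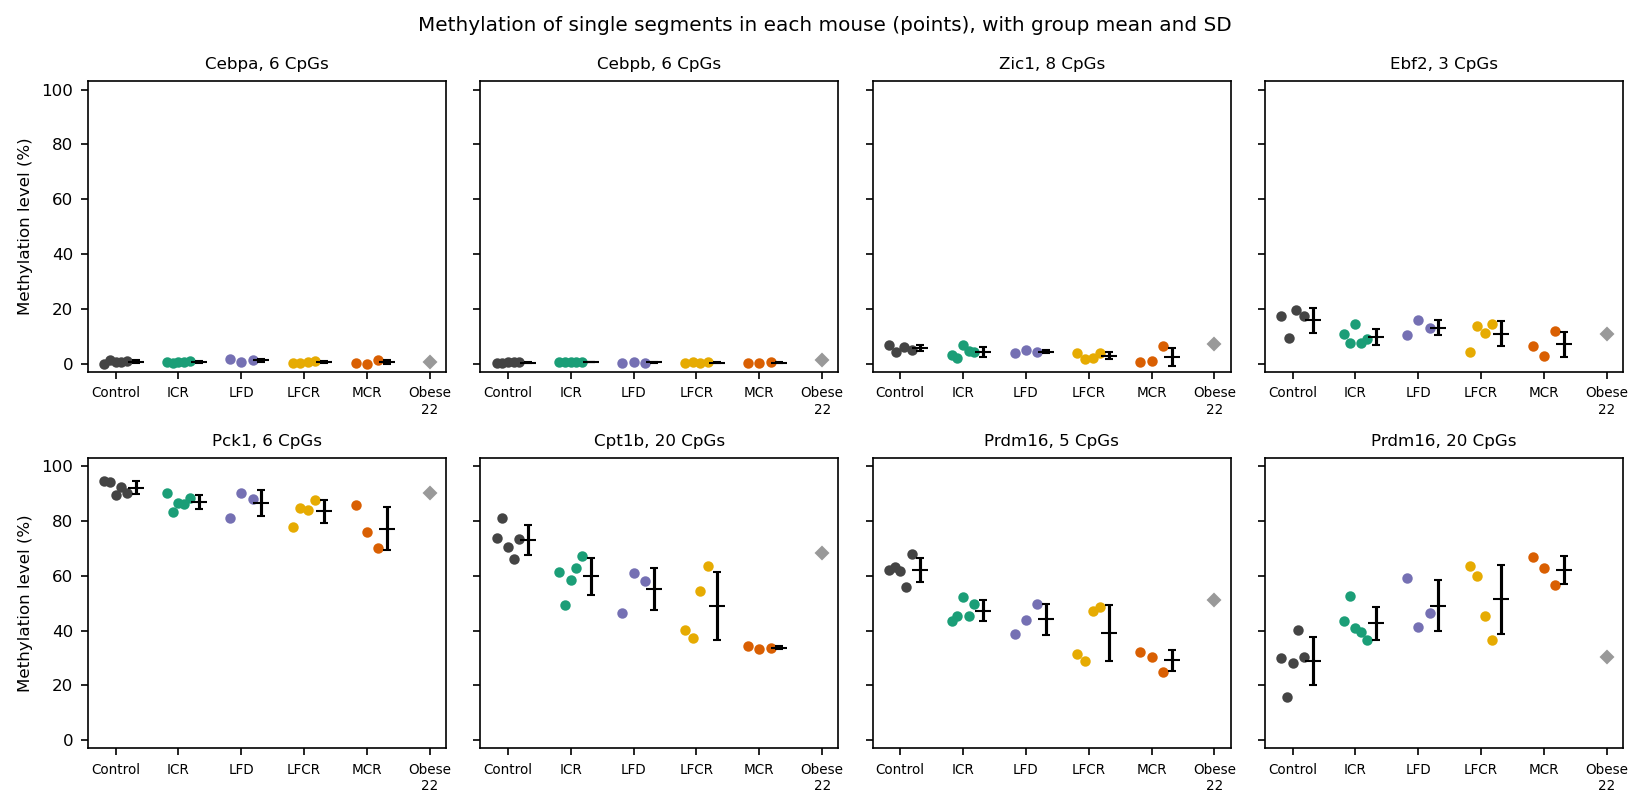
Methylation level in percent (y axis) of 8 segments in each mouse (points), by diet group (x axis), with the group mean and SD beside the points; Obese mouse 22 is a single grey diamond. The Cebpa and Cebpb segments lay near 0 in every group, Cpt1b and the 5-CpG Prdm16 segment were lowest in MCR, and the 20-CpG Prdm16 segment was highest in MCR.

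Cebpa and Cebpb had levels near 0 where they were measured, and Cebpd could not be tested. Cebpa encodes the late C/EBP factor of adipocyte differentiation, and its segment chr7:35119398-35119940, 6 CpGs of a CpG island in the 1st exon, had levels of 0%, 1.13%, 0.660%, 0.466% and 1.10% in the Control mice. The MCR mice had 0.235%, 0% and 1.32%. The groups overlapped, and the difference of MCR from Control was -0.155 points (SE 0.742, adjusted p = 0.880). Of its 10 CpGs, 2 are also assigned to Gm45091.

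Cebpb encodes an early C/EBP factor. Its segment chr2:167688989-167689579, 6 island CpGs of the 1st exon starting 74 bases after the start, had levels of 0.234% to 0.438% in Control and 0.237%, 0.291% and 0.508% in MCR. The 5 ICR mice had 0.408% to 0.717% and Obese mouse 22 had 1.27%. The MCR difference was -0.0334 points (SE 0.670, adjusted p = 0.972), with overlapping groups. After centring, the MCR differences of Cebpa and Cebpb turned to 1.02 and 1.14 points and were not called. Tmem189 shares 6 of the 8 Cebpb CpGs.

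Cebpd, the other early factor, had 2 island CpGs in its 1st exon, at 15887423 and 15887869 on chromosome 16. Neither had a value in enough mice for a test. All mice with a value were at 0%, except MCR mouse 85 with 20% at 15887869.

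Cpt1b had lower methylation in MCR at every tested CpG. All 28 tested CpGs of its 36 were called lower in MCR, with Control means of 52.4% to 95.4% and differences of -49.0 to -14.3 points. All 36 CpGs are also assigned to Gm44502, so the 2 genes cannot be told apart here. The gene lies at chr15:89416405-89425862. The main block is chr15:89425472-89425765, 20 CpGs of the 1st exon in a CpG island shelf, with a median coverage of 123 reads. The Control mice had 73.6%, 81.2%, 70.3%, 66.2% and 73.6% there, and the MCR mice had 34.4%, 33.2% and 33.7%. Every MCR mouse was below every other mouse, and the difference was -39.2 points (SE 5.35, adjusted p = 0.000445), or -24.2 after centring.

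The other diets lay between these groups in the same Cpt1b block. The LFCR mice had 40.3%, 37.2%, 54.5% and 63.7%, all below the Control range, with mice 63 and 67 lowest; the difference from Control was -24.0 points (SE 4.92, adjusted p = 0.0110). It was -21.2 without mouse 63 and -20.1 without mouse 67, with adjusted p of 0.0565 and 0.0562, and -14.2 after centring. The LFD mice had 46.6%, 60.9% and 58.1% (difference -17.8 points, SE 5.35, adjusted p = 0.101). The ICR mice had 61.4%, 49.1%, 58.3%, 63.0% and 67.1% (difference -13.2 points, SE 4.64, adjusted p = 0.271), and the last of them overlapped the Control range. Obese mouse 22 had 68.1%, within the Control range. Compared directly, MCR was lower than ICR by limma (difference -26.0 points, SE 5.35, adjusted p = 0.0145). MCR and LFCR differed by -15.2 points (SE 5.60), with an adjusted p of 0.320.

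Further into Cpt1b the differences were smaller. Segment chr15:89425170-89425264, 5 CpGs across the end of the 1st exon and the body, went from 70.5% ± 5.51 (SD, n = 5) in Control to 46.5% ± 2.38 (n = 3) in MCR, a difference of -24.0 points (SE 4.52, adjusted p = 0.000755). Segment chr15:89423988-89424016, 3 body CpGs, went from 87.1% ± 3.68 (n = 5) to 70.8% ± 4.27 (n = 3), a difference of -16.4 points (SE 2.75, adjusted p = 0.000522). In both, every MCR mouse was below the Control range. After centring the differences were -9.49 and -7.26 points, both called (adjusted p = 0.0157 and 0.0233). In LFCR the former segment differed by -18.1 points (SE 4.16, adjusted p = 0.0118). The latter differed by -12.4 points (SE 2.53, adjusted p = 0.0109), and neither was called without mouse 63 or mouse 67, where the differences were -15.3 and -16.4 points in the former and -10.4 and -11.7 in the latter (adjusted p from 0.0558 to 0.0596). Another segment of 8 body CpGs, chr15:89419192-89419351, had no level in MCR mouse 95 and was not tested; Control averaged 93.0% ± 2.33 (n = 5) and the other MCR mice had 76.9% and 86.7%.

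The Cpt1b CpG with the largest difference was 89425594 in the 1st exon. The Control mice had 90.9%, 78.5%, 61.8%, 54.8% and 70.7%, and the MCR mice 17.9%, 21.2% and 27.8%. The groups were separate, and the difference was -49.0 points (SE 8.08, adjusted p = 0.000993).

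**Figure D2:**
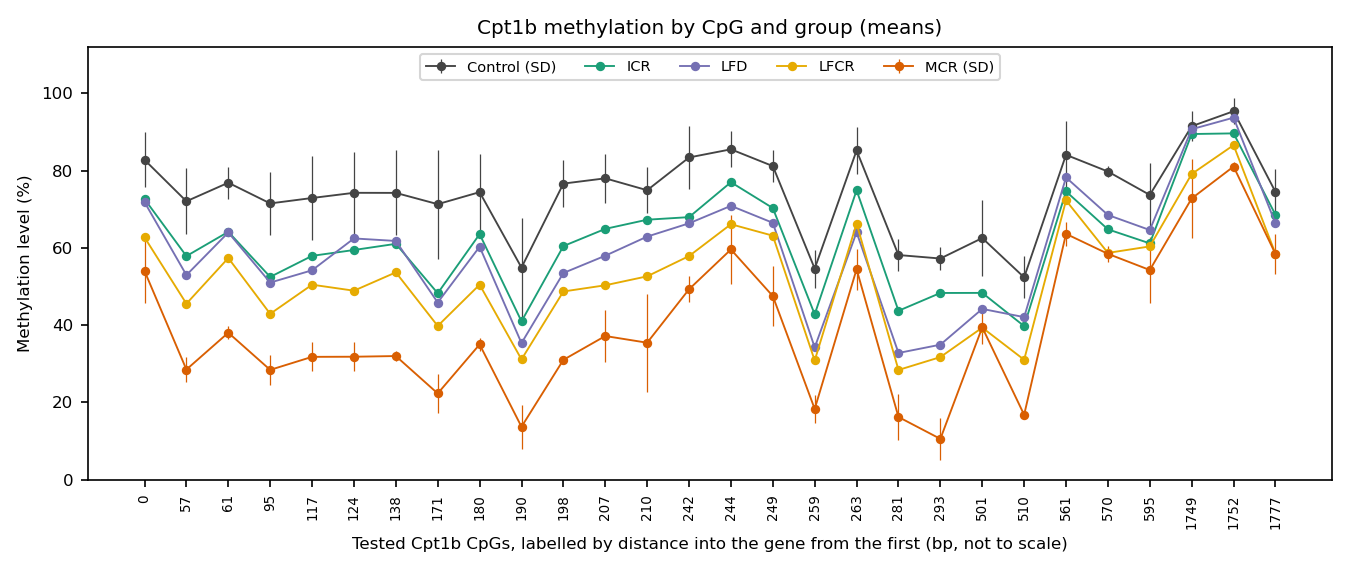
Mean methylation level in percent (y axis) at each of the 28 tested Cpt1b CpGs, ordered along the gene and labelled in bp from the CpG nearest its start (x axis, not to scale), for 5 diet groups; bars are the SD in Control and MCR. Control is the highest and MCR the lowest group mean at each of the first 20 CpGs, the block that averaged 73.0% in Control and 33.7% in MCR.

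Pck1, on chromosome 2, was also lower. Body segment chr2:173156042-173156236, 6 CpGs 3.07 kb into the gene, had 94.5%, 94.2%, 89.5%, 92.6% and 90.3% in Control. The MCR mice had 85.7%, 75.9% and 70.2%. All MCR mice were below the Control range (difference -15.0 points, SE 3.02, adjusted p = 0.00103, or -7.37 after centring, adjusted p = 0.0351). MCR was lower than ICR by -9.75 points (SE 3.02, adjusted p = 0.0301), which was not called after centring. In LFCR the levels were 77.7%, 84.6%, 84.0% and 87.7% (difference -8.69 points, SE 2.77, adjusted p = 0.0281). This LFCR call was lost without mouse 63 (-6.77 points), mouse 67 (-9.06 points) or Control mouse 1 or 2, and after centring (-4.12 points). Segment chr2:173158329-173158380, 3 CpGs near the end of the gene, went from 91.8% ± 1.70 (n = 5) to 77.3% ± 6.44 (n = 3) in MCR (adjusted p = 0.0159). Its difference of -14.5 points was -10.8 without MCR mouse 85 (adjusted p = 0.0988) and -6.91 after centring (adjusted p = 0.223), neither of them called. Its LFCR difference of -11.7 points had an adjusted p of 0.0497, so close to 0.05 that the call was lost with any of 17 of the 20 mice left out in turn. The difference was -5.95 without LFCR mouse 67 and -12.2 to -10.9 without any of the other 16.

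At the start of Pck1 the lowest levels were in LFCR. Segment chr2:173153060-173153122 consists of the 3 CpGs located in the printed sequence. A level was given for 3 Control mice, with 92.7%, 82.6% and 87.9%. The LFCR mice had 65.6%, 54.3%, 74.2% and 74.7%, and the MCR mice 71.5%, 77.3% and 78.1%. Both groups lay below the 3 Control mice. The LFCR difference was -20.5 points (SE 5.14, adjusted p = 0.0147). It was -20.0 without mouse 63, -16.2 without mouse 67 and -13.02 after centring, with adjusted p of 0.0625, 0.0595 and 0.0585. The MCR difference was -12.1 points (SE 5.50), with an adjusted p of 0.0745. MCR and LFCR did not differ by the test (8.46 points higher in MCR, SE 5.14, adjusted p = 0.447). The Pck1 CpG with the largest MCR difference was 173156194 in the body, at 91.9% ± 7.23 (n = 5) in Control and 69.2% in MCR, a difference of -22.7 points (SE 4.52, adjusted p = 0.00183).

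Prdm16, the determinant of heat-producing adipocytes, carried most of the data. It lies on the minus strand at chr4:154316122-154637360 and had 54 tested segments, of which 38 were lower and 4 higher in MCR. These were 70.4% and 7.41%, beside 51.5% and 6.16% of all segments. The 38 held 277 CpGs, lay 6.56 to 308 kb downstream of the start, and had Control levels of 51.1% to 92.0%. Their differences ran from -39.1 to -5.57 points with a median of -20.2. In 33 of the 38, which were already called lower, all MCR mice were below the Control range. Across all members, the MCR mice were all below the Control range in 39 of 68 segments and all above in 4, beside 48.5% and 5.74% of all segments. Of the 412 Prdm16 CpGs tested, 202 were lower and 49 higher, beside 32.8% and 4.54% of all CpGs.

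The Prdm16 segment with the smallest p was chr4:154471990-154472140, 5 body CpGs 165 kb from the start. The Control mice had 62.0%, 63.2%, 61.8%, 55.9% and 68.1%. The MCR mice had 32.3%, 30.2% and 24.9%. The groups were far apart, with a difference of -33.1 points (SE 4.20, adjusted p = 0.000428), or -18.1 after centring (adjusted p = 0.000901). The LFCR mice had 31.4%, 28.9%, 47.1% and 48.5% (difference -23.2 points, SE 3.86, adjusted p = 0.0108). That difference was -20.7 without mouse 63 and -19.9 without mouse 67, with adjusted p of 0.0558 for both. The LFD mice had 38.7%, 43.7% and 49.8% (adjusted p = 0.0799), and the ICR mice 43.4%, 45.5%, 52.4%, 45.4% and 49.9% (adjusted p = 0.271). Every mouse on a weight-loss diet among those used, and Obese mouse 22 with 51.0%, was below the lowest Control mouse in this segment. MCR was lower than ICR by -18.2 points (SE 4.20, adjusted p = 0.0164), which was not called after centring.

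The deepest loss was at chr4:154594769-154594861, 6 CpGs 42.1 kb from the start with a median coverage of 192 reads. Control levels were 78.9%, 75.9%, 65.5%, 56.4% and 70.3%, and MCR levels 33.6%, 27.0% and 30.2%. The ranges did not overlap, and the difference was -39.1 points (SE 6.40, adjusted p = 0.000502), or -22.8 after centring (adjusted p = 0.00129). LFCR averaged 51.2% ± 8.73 (n = 4), a difference of -18.2 points (adjusted p = 0.0294) that was not called without mouse 63 (-16.1 points), mouse 67 (-15.3 points) or Control mouse 1, 2 or 13, nor after centring (-7.43 points). Obese mouse 22 had 67.5%, within the Control range. Similar losses were seen at chr4:154477975-154478246 (84.0% to 55.4%, adjusted p = 0.000577) and chr4:154540874-154541152 (65.6% to 43.6%, adjusted p = 0.000577). These MCR differences of -28.6 and -21.96 points were -14.9 and -6.11 after centring (adjusted p = 0.00230 and 0.0388). Their LFCR differences were -16.8 and -12.2 points (adjusted p = 0.0167 and 0.0203), neither called without mouse 63 or mouse 67 nor after centring, and the latter not without Control mouse 2.

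A further 4 Prdm16 segments were higher in MCR, and they are named here after their values were seen. The largest, chr4:154518941-154519944, has 20 body CpGs 117 kb from the start. Control mice had 30.1%, 15.6%, 28.1%, 40.2% and 30.3%, and MCR mice 66.8%, 62.7% and 56.5%. All MCR mice were above the Control range, with a difference of 33.2 points (SE 6.16, adjusted p = 0.000706). LFCR mice had 63.7%, 60.0%, 45.2% and 36.6% (difference 22.5 points, SE 5.66, adjusted p = 0.0134), with mice 63 and 67 highest. Without either the difference was 18.4 or 19.6 points and was not called (adjusted p = 0.0664 and 0.0629). LFD mouse 42, with 59.3%, was higher than mice 47 and 48, with 41.3% and 46.3%. MCR was also higher than ICR there, by 19.5 points (SE 6.16, adjusted p = 0.0323), which was not called after centring.

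The other gains were at chr4:154585295-154585338 (3 CpGs, 61.0% in Control and 80.9% in MCR, adjusted p = 0.00353), chr4:154549708-154550077 (9 CpGs, 32.9% and 49.1%, adjusted p = 0.00362) and chr4:154634648-154635282 (26 CpGs, 22.4% and 33.9%, adjusted p = 0.00488). The last covers island and shore CpGs 1.91 kb downstream of the start. In all 4 segments every MCR mouse was above the Control range, and all 4 were called after centring too, with larger differences of 47.2, 32.3, 26.8 and 20.9 points in the order given. Centring takes out the mean loss of the MCR libraries, so such gains grow by the adjustment itself and add no support. Over all segments, higher calls in MCR went from 6.16% to 14%. Segment chr4:154585295-154585338 was also higher in LFCR (15.8 points, adjusted p = 0.0205), a call lost without mouse 63 (13.2 points), mouse 67 (14.0 points) or Control mouse 2. Obese mouse 22 was above the Control range only in that segment among the 4. Of the 38 lower segments, 14 were called after centring.

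The direction differed with the Control level of a Prdm16 segment, which is itself part of the difference. Of 5 segments with Control levels of 10% to 40%, 3 were higher and 0 lower. Of 19 at 60% to 80%, 17 were lower and 1 higher, with a median of -24.6 points, and of 28 over 80%, 19 were lower, with a median of -10.04. Over all segments of the genome the medians were -4.64 points at 10% to 40%, -15.5 at 60% to 80% and -9.30 over 80%. In these ranges 42.8%, 67.5% and 61.8% of all segments were lower and 19.7%, 4.69% and 0.251% higher. Most segments of the genome with Control levels of 60% or more were thus lower too. The members with Control levels under 10%, 5 segments of Cebpa, Cebpb, Ebf2 and Zic1, had differences of -3.02 to -0.0334 points, and the genome median in that range was -0.231.

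**Figure D3:**
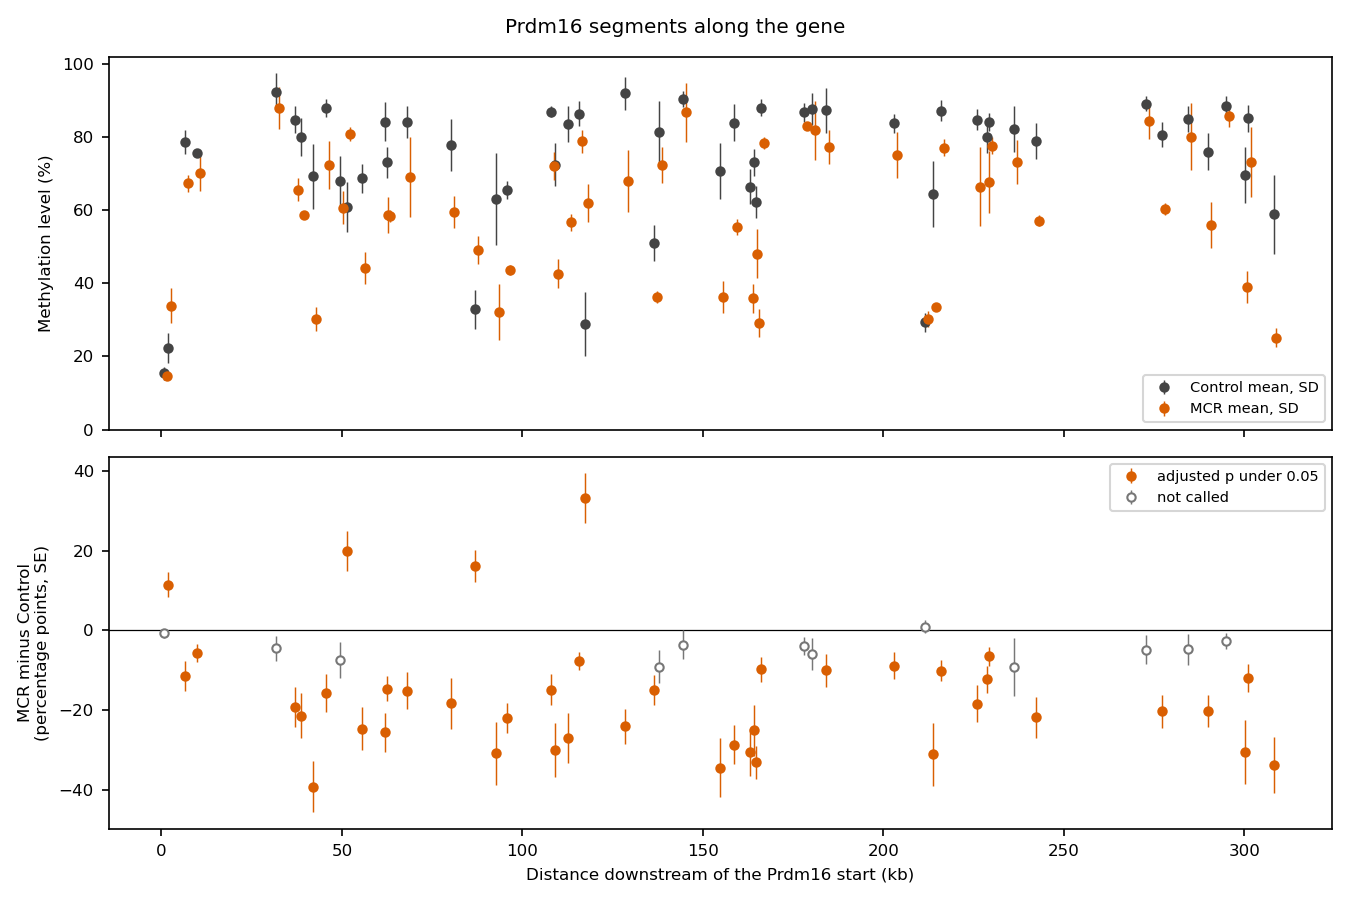
Prdm16 segments by distance downstream of the start in kb (x axis): above, mean level in percent with SD in Control and MCR (MCR drawn slightly to the right); below, the difference of MCR from Control in percentage points with its SE, filled where the adjusted p was under 0.05. Lower segments run from 6.56 to 308 kb, and the 4 higher ones lie within 117 kb of the start.

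**Figure D4:**
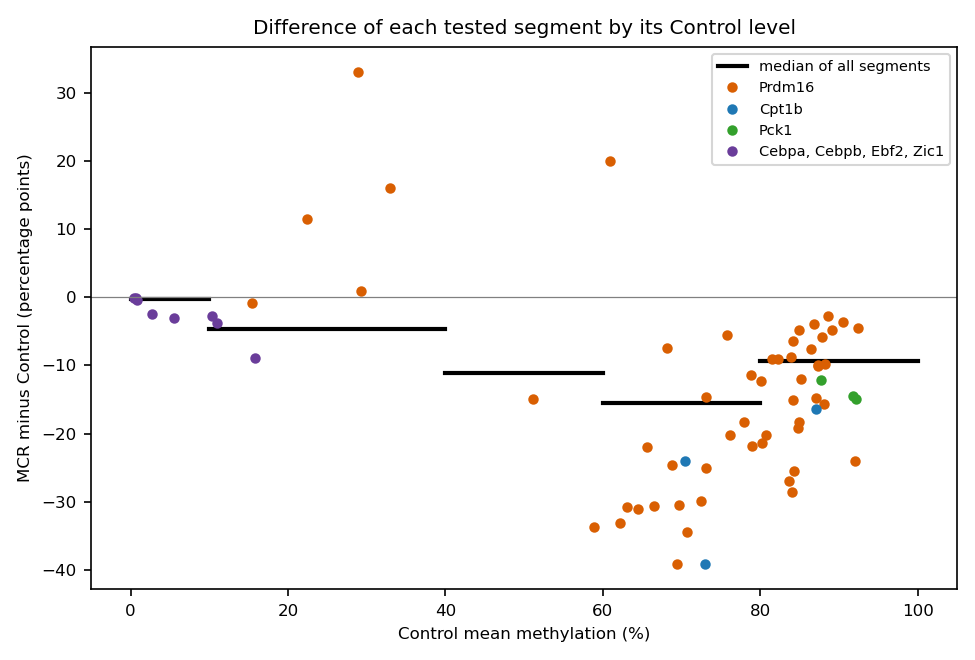
Difference of MCR from Control in percentage points (y axis) against the Control mean in percent (x axis) for the 68 tested segments (points, by gene); black bars are the medians of all 18896 segments in 5 ranges of Control level. The 4 points well above 0 are the higher Prdm16 segments, and the lowest points, near -39, are a Cpt1b and a Prdm16 segment.

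Close to its start Prdm16 was little methylated. Segment chr4:154636024-154636189, 4 island CpGs 0.767 kb from the start, averaged 15.5% in Control and 14.7% in MCR (adjusted p = 0.595). Its mean was carried by 1 CpG, 154636189, singled out after its values were seen. That CpG had 58.8% ± 7.80 (SD, n = 5) in Control and 56.9% ± 4.82 (n = 3) in MCR, with a coverage of 114 reads, while the other 3 CpGs had Control means of 0.763% to 1.20%. The Prdm16 CpG with the largest difference was 154499632 in the body. Control mice had 64.7%, 70.0%, 64.2%, 52.9% and 70.6%, and MCR mice 4.17%, 8.33% and 26.7%. The ranges were separate (difference -51.4 points, SE 8.68, adjusted p = 0.00104). Of the 533 Prdm16 CpGs, 41 are shared with B230104I21Rik and 13 with Gm13133.

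The segments of other genes whose levels over the 21 libraries were most like those of the first-named Prdm16 segment belonged to Epop (r = 0.955), Adgrl1 (r = 0.953), Tppp3 (r = 0.953), Nrxn2 (r = 0.952) and Gm15208 (r = 0.951). Pearson r was used over 21 libraries that share the shift described above, so such values were common: 26.8% of the 13886 segments compared had r over 0.8, and the median was 0.636.

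The other thermogenic regulators gave few calls. Ppargc1a, the mitochondrial coactivator, had a single CpG, 51481843 in its body on chromosome 5, with an average coverage of 17.9 reads. Control mice had 85.0%, 76.9%, 91.7%, 100% and 88.9%, and MCR mice 90.9%, 100% and 83.3%. The groups overlapped, with a difference of 2.92 points (SE 6.16, adjusted p = 0.758). Obese mouse 22 had 91.7%.

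Ebf2, a factor that opens chromatin at brown fat genes, had 9 segments, 4 of them tested, and 1 was lower in MCR. This was chr14:67237570-67237611, 3 body CpGs in a CpG island shore with a median coverage of 96.2 reads. The 4 Control mice with a level had 17.2%, 9.25%, 19.4% and 17.5%, and the MCR mice 6.35%, 2.78% and 11.9%. The ranges overlapped, since 1 MCR mouse lay above the lowest Control mouse. The difference was -8.84 points (SE 2.92, adjusted p = 0.0174). It was lost without MCR mouse 85 (adjusted p = 0.0506) or MCR mouse 95 (adjusted p = 0.0985), and after centring (adjusted p = 0.129). The other tested Ebf2 segments had Control means of 0.881%, 2.77% and 11.02%. In the body of Ebf2, 3 segments from 67308408 to 67318468 had Control means of 73.2% to 85.4%, each from 2 Control mice, and 1 MCR mouse with a level. They could not be tested. Gm6878 shares 11 of the 52 Ebf2 CpGs, and 4930438E09Rik shares 2.

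Zic1, the brown fat marker, was little methylated in every group. Segment chr9:91364322-91365109, 8 island CpGs of the 1st exon, had 6.86%, 4.27%, 5.97% and 5.11% in 4 Control mice and 0.484%, 0.811% and 6.30% in MCR. The groups overlapped (difference -3.02 points, SE 1.43, adjusted p = 0.0814), and Obese mouse 22 had 7.05%. A segment in the gene body, chr9:91362387-91362580, averaged 10.4% ± 3.62 (n = 3) in Control and 7.69% ± 1.24 (n = 3) in MCR. Only 1 Zic1 CpG of 10 tested was called, 91364956, at 5.74% in Control and 1.10% in MCR (adjusted p = 0.0318). Zic4 shares 18 of the 24 Zic1 CpGs, so these levels cannot be assigned to Zic1 alone. The 4 CpGs around the printed Zic1 start had values in 3 Control and 2 MCR mice and were not tested.

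Dio2 had no CpG under its symbol. The table holds 3 CpGs with a 3'UTR feature and no symbol, 90725464, 90725474 and 90725504, inside the RefSeq interval of Dio2 on chromosome 12 (90724552 to 90739038). They were looked up after values were seen. In the only Control mouse with a value, mouse 13, they had 100%, 85.7% and 100%, and in the only MCR mouse, 96, they had 100%, 73.3% and 87.5%. No test was possible.

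Obese mouse 22 was compared with the Control range only. Of the 68 member segments it lay below the range in 18, above in 9 and within in 41, beside 23.8% below and 10.8% above of all segments. With 1 mouse there is no measure of spread in the obese group.

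Compared directly, MCR was lower than ICR in 15 of the 68 segments and higher in 1, beside 26.1% and 2.4% of all segments. These were 12 lower and 1 higher in Prdm16, 2 lower in Cpt1b and 1 lower in Pck1. The count was 3 without MCR mouse 95 (3.66%, beside 3.43% of all segments called), 6 without MCR mouse 96 or ICR mouse 112 (8.7% and 8.82%, beside 9.76% and 8.28%) and 8 without MCR mouse 85 (11.8%, beside 9.91%). It was 10 without ICR mouse 105 or 106 (14.7%, beside 18% and 14.1%), 25 without LFD mouse 42 (36.8%, beside 32.7%) and 28 without LFCR mouse 72 (41.2%, beside 34.4%). After centring 1 was lower, in Cpt1b, and 0 higher, beside 1.17% and 1.37% of all segments. Against LFD and against LFCR, no MCR difference was called by limma, beside 0% called of all segments in both. At an unadjusted p under 0.05, 15 and 7 of the 68 passed (22.1% and 10.3%), below the 26.7% and 12.7% of all segments. Without LFD mouse 42, 11 segments were lower in MCR than in LFD (16.2%, beside 9.03% of all segments called), and without LFCR mouse 72, 3 were (4.41%, beside 2.37%).

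Other genes of the same programmes were taken from 4 lists. Of 99 tested segments in 15 of 23 regulators of adipocyte differentiation, 52 were lower and 7 higher in MCR (median -8.52 points), beside 51.5% lower and 6.16% higher of all segments. Rxra, a partner of PPAR gamma, went from 82.1% to 43.8% in the segment with its smallest p (adjusted p = 0.000477). Zfp423, which commits precursors to white fat, went from 83.8% to 64.7% (adjusted p = 0.000495). Gata3, which restrains differentiation, went up from 22.9% to 43.4% (adjusted p = 0.000503). The share of lower segments in this list, 52.5%, was near that of the genome.

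Lipid storage and adipokine genes had 16 lower and 3 higher of 23 segments in 12 of 24 genes. These were 69.6% and 13%, beside 51.5% and 6.16% of all segments, with a median of -16.5 points. In their segments of smallest p, the lipases Lipe and Pnpla2 went from 80.6% to 49.97% (adjusted p = 0.000921) and from 73.5% to 47.0% (adjusted p = 0.00104). Aqp7, the glycerol channel of fat cells, went from 73.6% to 41.4% (adjusted p = 0.00116). After centring, 9 were lower and 4 higher in this list (39.1% and 17.4%), beside 17.4% and 14% of all segments.

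Of the thermogenic programme, 26 of 52 segments in 17 of 33 genes were lower and 2 higher (median -6.57 points). These were 50% and 3.85%, beside 51.5% and 6.16% of all segments. Bmp7, an inducer of brown fat, went from 77.9% to 44.5% (adjusted p = 0.000477), Ctbp2, a partner of PRDM16, from 93.3% to 81.6% (adjusted p = 0.000502), and Esrra, a nuclear receptor for mitochondrial genes, from 76.3% to 44.3% (adjusted p = 0.000984). In fatty acid oxidation, 13 of 17 segments in 6 of 22 genes were lower and 1 higher (76.5% and 5.88%, median -11.9 points). Slc27a1, a fatty acid transporter, went from 89.4% to 76.2% (adjusted p = 0.000428), Pdk2 from 90.1% to 78.2% (adjusted p = 0.00118), and Crat, which makes acetylcarnitine, went up from 45.4% to 64.7% (adjusted p = 0.00130). After centring the 2 lists had 9 lower and 4 higher (17.3% and 7.69%), and 4 lower and 1 higher (23.5% and 5.88%). Of all segments, 17.4% and 14% were then lower and higher. In LFCR the 4 lists had 37, 9, 14 and 8 segments lower (37.4%, 39.1%, 26.9% and 47.1%, beside 28.8% of all segments). Higher were 5, 2, 0 and 0 (5.05%, 8.7%, 0% and 0%, beside 3.31%). In LFD and ICR none was called by limma, beside 0.0476% and 0% of all segments. At an unadjusted p under 0.05 the 4 lists had 31, 7, 10 and 4 segments in LFD and 23, 2, 9 and 3 in ICR. The lists had 99, 23, 52 and 17 tested segments, and of all segments 26.7% passed in LFD and 16.8% in ICR. Zfp423 and Pdk2 kept their direction after centring and were not called (adjusted p = 0.114 for both), while the other 10 genes named here were called in the same direction.

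Genes that mark other cells of the fat pad also had called segments in MCR against Control. The luminal and muscle lists lay near or below the genome in the share of lower segments. In leukocyte genes, 5 of 20 segments in 11 of 18 genes were lower and 8 higher in MCR. These were 25% and 40%, beside 51.5% and 6.16% of all segments, with a median of 5.72 points, or 17.2 after centring. Coro1a and Spi1 went up from 29.8% to 69.7% and from 45.3% to 80.1%, and Cd37 went down from 59.2% to 14.0% (adjusted p = 0.000617, 0.000780 and 0.000675). The mean level over 13 leukocyte segments measured in all libraries was 51.0% to 56.1% in Control and 58.2% to 59.3% in MCR. Endothelial genes had 10 lower and 1 higher of 14 segments (71.4% and 7.14%, median -12.9 points), with Nos3 going from 73.5% to 33.5%, Egfl7 from 79.6% to 50.8% and Robo4 from 60.2% to 16.9% (adjusted p = 0.000704, 0.000867 and 0.00206). Their mean level over 10 segments was 59.0% to 63.6% in Control and 42.9% to 44.8% in MCR. After centring, 5 endothelial segments were lower and 2 higher (35.7% and 14.3%, median -6.07 points), beside 17.4% and 14% of all segments.

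Luminal epithelial genes had 4 lower and 1 higher of 8 segments (50% and 12.5%), beside 51.5% and 6.16% of all segments. Cldn7 was at 15.6% in Control and 9.45% in MCR, Cldn4 at 71.9% and 53.9%, and Epcam at 1.00% and 7.46% (adjusted p = 0.00147, 0.00218 and 0.00568). Skeletal muscle genes had 7 lower and 1 higher of 15 (46.7% and 6.67%), with Myog at 44.4% and 16.4%, Myod1 at 18.8% and 12.1%, and Des at 67.2% and 56.5% (adjusted p = 0.000645, 0.00226 and 0.00331). Adipocyte markers, among them the segments of Cebpa and Lipe given above, had 4 lower and 2 higher of 8 segments (50% and 25%) in 3 of 7 genes. Plin1, the lipid droplet coat protein, went from 92.1% to 81.6% in its segment of smallest p (adjusted p = 0.0151). The measured genes were Cebpa, Lipe and Plin1, and the only Cebpa segment was not called. The lower segments lay in 2 genes and the higher ones in 1, so Lipe or Plin1 had calls in both directions. The median of the luminal list went from -5.60 to 4.51 points, and that of the muscle list from -6.05 to 1.90, after centring. Cldn4, Myod1, Des and Plin1 kept their direction after centring and were not called (adjusted p = 0.148, 0.266, 0.580 and 0.209). Basal epithelial genes had no tested segment. The part of cell composition in the member results was not tested.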

How the data were processed

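Methylation was measured by RRBS in 25 mammary fat pads, of which 21 were used. Per the labels' protocols, libraries were made from MspI fragments of 40 to 170 bp, and per the submitters' processing notes, Bismark and mm10 were used, with versions, filters and coverage minimum not given in the sources used here. The authors deposited, per CpG and library, the methylated fraction of reads (0 to 1), printed here in percent, and a coverage signal, the average reads per CpG over 21 libraries. Depth per library is unknown, so no binomial intervals were computed and mice were weighted alike. The authors' group means and contrast columns, whose group codes differ from the labels' names, were not used.

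Of 283974 CpGs, 38 on sequences other than the chromosomes were left out and 260376 had a coverage of at least 10. A tested CpG or segment had a level in at least 3 mice of each of the 5 groups in the fit, with 20 mice. Segments joined CpGs of 1 gene at most 200 bp apart, with at least 3 CpGs. A mouse's level was the average of the CpG means, shifted by that mouse's mean deviation from them. It needed a value at a 0.5 share of the CpGs or more, and can fall slightly below 0. Tests were limma's moderated test with 1 mean per group (squeezeVar), two-sided, Benjamini-Hochberg adjusted over 129217 CpGs or 18896 segments; the fit was tested on simulated data. The members and lists were chosen with earlier results of these data known. Values per mouse are printed for each member's segment of smallest p in MCR and up to 3 others called, single CpGs for the largest called difference, and list genes for the 3 smallest p per list. Other names are said to be chosen after their values were seen. Where no source says more, p-values measure the spread between these mice only. Gene intervals and promoters came from RefSeq (GRCm38.p6). Alternatives were coverage minima of 5 and 20, an arcsine square root scale, centring in 10 level bins, all 25 libraries, a minimum difference of 10 points, other segment definitions and leaving out each mouse. Software was R 4.3.3, limma 3.58.1, Python 3.11.15, pandas 2.3.3, numpy 2.4.6 and matplotlib 3.10.9.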

Additional observations from a re-analysis of the deposited data

Results flagged for a closer look

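In 3 of 53 groups of 4 or 5 mice examined at the named segments, 1 mouse lay far from the others; chance alone gives about 1 in 20. At Cebpb chr2:167688989-167689579, Control mouse 2 had the lowest level of its group, 0.234%. At Pck1 chr2:173153060-173153122, ICR mouse 105 had 90.6%, above the other ICR mice. At Prdm16 chr4:154585295-154585338, Control mouse 13 had 72.7%, above the other Control mice, and the segment was called higher in MCR when that mouse was left out.

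The 4 libraries left out carried intermediate methylation where all other libraries had little. Their mean was 49.0% at the Cebpa segment, 50.6% at the Cebpb segment and 41.4% at the Zic1 segment, against Control means of 0.672%, 0.379% and 5.55%.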

How the results depend on the processing

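In MCR against Control, the 48 member segments called stayed within 1.5 times under coverage minima of 5 and 20, the arcsine square root scale, all 25 libraries, a minimum difference of 10 points and joining CpGs up to 500 bp apart. After centring they were 24 (18 lower, 6 higher), 35.3% beside 31.4% of all segments. With at least 5 CpGs per segment they were 30 of 40 (75%, beside 66.6%). With promoter classes pooled per gene they were 2 of 6 (33.3%, beside 46.5%). In these last 2 settings fewer segments were tested. In LFCR against Control, 32 segments became 14 after centring (20.6%, beside 13.2% of all segments) and 2 with pooled promoter classes (33.3%, beside 26.2%). In MCR against ICR, 16 became 1 after centring (1.47%, beside 2.55%) and 1 with pooled promoter classes (16.7%, beside 18%). In MCR against LFD, 0 became 4 with all 25 libraries (5.88%, beside 3.59%). For CpGs, centring changed 285 to 164 in MCR (93 lower, 71 higher), 32.9% beside 19.8% of all CpGs. It changed 127 to 39 in LFCR (18 lower, 21 higher), 7.83% beside 4.5%. Of all CpGs, 37.4% and 13.5% were called before centring. The cause of these changes was not tested.

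With each mouse left out in turn, called segments ranged from 41 to 49 in MCR, from 0 to 45 in LFCR and from 0 to 13 in LFD, each against Control, from 3 to 28 in MCR against ICR and from 0 to 11 in MCR against LFD; they were 0 throughout in ICR against Control and in MCR against LFCR. Called CpGs ranged from 233 to 299 in MCR and from 0 to 213 in LFCR. Of 365 alternative values for 14 called MCR differences at named segments, 360 kept direction and call, 5 lost the call and 0 reversed. Of 310 for 12 LFCR differences, 257 kept both, 53 lost the call and 0 reversed. Many of these values leave out a mouse of a group outside the comparison. That changes mainly the estimate of spread, so their direction was all but fixed beforehand. No paired analysis was possible because every mouse number occurs in only 1 group. The number of mice and the unknown depth per library limit what small differences could be seen, above all at segments with 3 mice per group.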
